A study of Drosophila melanogaster with 6 samples.

Results

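Ribosomal protein paralogs are pairs of genes in which the ribosome can draw the same protein from either copy, and 10 such genes in 5 pairs were examined in early Drosophila melanogaster embryos: RpS10a and RpS10b, RpL22-like and RpL22, RpL37-2 and RpL37-1, RpS19b and RpS19a, and RpS5b and RpS5a. Members were taken as the probe sets (groups of short probes for 1 transcript) whose platform annotation names exactly 1 gene, one of these 10, in a table of 18769 probe sets. By this rule 6 of the 10 genes were measured, each by 1 probe set: RpS10a, RpL22-like, RpL37-2, RpL37-1, RpS19b and RpS5b. RpS10b, RpL22, RpS19a and RpS5a were not analysed here, so the RpL37 pair is the 1 pair of the 5 with both paralogs. The set was picked after a low level of RpS10a in brakeless embryos had been seen on these same arrays. The differences between the groups are therefore given as descriptions with 95% intervals. Counts of calls by the fit over all probe sets stand beside the share of all probe sets called, and nothing is read from them.

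The brakeless group had 3 arrays of dechorionated embryos aged 2 to 4 h, laid at 25 °C by FRT2R G13 bks278/FRT2R G13 ovoD1 females that had been mated with FRT2R G13 bks278/CyO males. The control group had 3 arrays of embryos of the same age from FRT2R G13/FRT2R G13 ovoD1 females and FRT2R G13 males. In both groups the eggs came from germline clones, because ovoD1 blocks egg production by germ cells that keep it, so the brakeless eggs came from germ cells with 2 copies of bks278, a strong allele of the gene sbb. The CyO balancer of the brakeless fathers reached some embryos of that group and was not in the control cross. Levels are log2 values after RMA, and each unit is a doubling. RMA subtracts background, gives the probe intensities of every array the same distribution and then combines the probes of a set. The combined values still differed between arrays, with array medians from 3.59 to 3.73.

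The ribosome holds about the same number of copies of each of its proteins, and loss of 1 copy of many ribosomal protein genes slows growth and gives the Minute phenotype in flies. In Drosophila several of these genes have a second copy, and in many pairs an X-linked copy is used throughout the body while the autosomal copy is known for germ line expression. RpS10a, RpS19b and RpS5b are known from the germ line, RpS5b chiefly in the ovary, and RpL22-like and RpL37-2 are known from the testis. In the reference annotation (Release 6 plus ISO1 MT) RpS10a, RpS19b and RpS5b lie on chromosome arm 3R, RpL22-like and RpL37-2 lie on 2R, and RpL37-1 lies on the X chromosome, as do the 4 partners that were not analysed. The gene sbb is also on 2R, with 571 measured genes between it and RpL22-like.

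The measured paralogs differed in level and in how far the groups stood apart. RpS5b and RpL37-1 were among the brightest probe sets on every array and had nearly the same value in both groups. RpS10a was far lower in brakeless embryos than in control embryos, where it was bright, and RpL22-like, RpL37-2 and RpS19b were dim in both groups and lower on average in brakeless embryos. The median level of all probe sets was 3.67, and differences below and near it are compressed by RMA.

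RpS10a encodes a copy of eS10, a protein of the small subunit near the mRNA entry side. Its log2 level was 4.64, 4.77 and 8.48 in brakeless replicates 1, 2 and 3, against 12.4, 11.4 and 12.2 in control replicates 1, 2 and 3. The groups did not overlap, and the highest brakeless array lay 2.96 below the lowest control array. Brakeless replicate 3 stood apart from the other brakeless arrays, so that the group's range was 3.85, against 0.95 in the control group. The mean was 5.96 ± 2.19 on the brakeless arrays and 12.02 ± 0.51 on the control arrays (SD, n = 3 arrays each), a difference of -6.06 (95% interval -8.64 to -3.48). The difference was -7.32 without brakeless replicate 3 and -5.40 without brakeless replicate 1. Brakeless replicates 1 and 2 were not shown to be above background, so no fold is given. Of all 18769 probe sets this was the difference of rank 1 in size, which is the value that led to the choice of these genes. In rank within its array, RpS10a stood at the 61.7, 62.1 and 81.8 percentile of probe sets in brakeless replicates 1, 2 and 3, against the 99.2, 98.2 and 99.04 percentile in control replicates 1, 2 and 3. RNA of whole embryos cannot tell fewer cells with the transcript from less transcript per cell.

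RpL22-like encodes a relative of RpL22, a protein of the large subunit that binds RNA. It read 4.14, 4.41 and 4.31 in brakeless replicates 1, 2 and 3, against 6.07, 4.97 and 6.35 in control replicates 1, 2 and 3. The groups did not overlap, with a gap of 0.56 between the highest brakeless and the lowest control array. The mean was 4.29 ± 0.13 on the brakeless arrays and 5.80 ± 0.73 on the control arrays (SD, n = 3 each), a difference of -1.51 (95% interval -2.39 to -0.64). Unlike RpS10a, it was most uniform in the brakeless group, where brakeless replicate 3 lay between the other brakeless arrays. All its brakeless values stood between the 58.3 and 59.8 percentile of their arrays, so a transcript at the background could not be told from a faint one.

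RpL37-2 and RpL37-1 both encode eL37, a small zinc-binding protein of the large subunit, and they form the one pair measured in full. RpL37-2 read 4.93, 5.23 and 5.55 in brakeless replicates 1, 2 and 3, against 6.27, 5.52 and 6.38 in control replicates 1, 2 and 3. Its groups overlapped by 0.03, since brakeless replicate 3 lay just above control replicate 2. The mean was 5.24 ± 0.31 on the brakeless arrays and 6.06 ± 0.47 on the control arrays (SD, n = 3 each), a difference of -0.82 (95% interval -1.50 to -0.14). The X-linked RpL37-1 read 13.2, 13.3 and 13.4 in brakeless replicates 1, 2 and 3, against 13.2, 13.3 and 13.0 in control replicates 1, 2 and 3, and these groups overlapped. Its mean was 13.30 ± 0.10 on the brakeless arrays and 13.14 ± 0.15 on the control arrays, a difference of 0.16 (95% interval -0.14 to 0.46).

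RpL37-2 was thus lower on average in brakeless embryos, while no direction is read for RpL37-1, whose interval ran from -0.14 to 0.46. Levels of 2 probe sets cannot be set against each other, but the shift of their difference between groups can be. The log2 value of RpL37-2 minus that of RpL37-1 was -8.26, -8.11 and -7.81 in brakeless replicates 1, 2 and 3, against -6.93, -7.73 and -6.59 in control replicates 1, 2 and 3. It averaged -8.06 ± 0.23 on the brakeless arrays and -7.09 ± 0.59 on the control arrays (SD, n = 3 each), a shift of -0.98. The groups did not overlap, though brakeless replicate 3 and control replicate 2 lay close together. No interval was computed for this shift.

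RpS19b encodes a copy of eS19, a protein of the small subunit known in yeast and human cells to be needed for processing its RNA. It read 4.36, 4.08 and 4.57 in brakeless replicates 1, 2 and 3, against 5.14, 4.54 and 5.90 in control replicates 1, 2 and 3. The groups overlapped by 0.02, again through brakeless replicate 3 and control replicate 2. The mean was 4.34 ± 0.24 on the brakeless arrays and 5.20 ± 0.68 on the control arrays (SD, n = 3 each), a difference of -0.86 whose 95% interval reached 0 (-1.72 to 7.7e-05). Without control replicate 3, the highest array, the difference was -0.50.

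RpS5b encodes a copy of uS7, a protein of the small subunit that contacts tRNA. It read 13.98, 14.15 and 13.96 in brakeless replicates 1, 2 and 3, against 14.08, 14.16 and 14.09 in control replicates 1, 2 and 3. The groups overlapped, and the range over the 6 arrays was 0.20. The mean was 14.03 ± 0.10 on the brakeless arrays and 14.11 ± 0.04 on the control arrays (SD, n = 3 each), a difference of -0.08 (95% interval -0.33 to 0.17). It stood at or above the 99.86 percentile on every array, close to the top of the scale at 14.3, which limits the differences it can show.

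**Figure D1:**
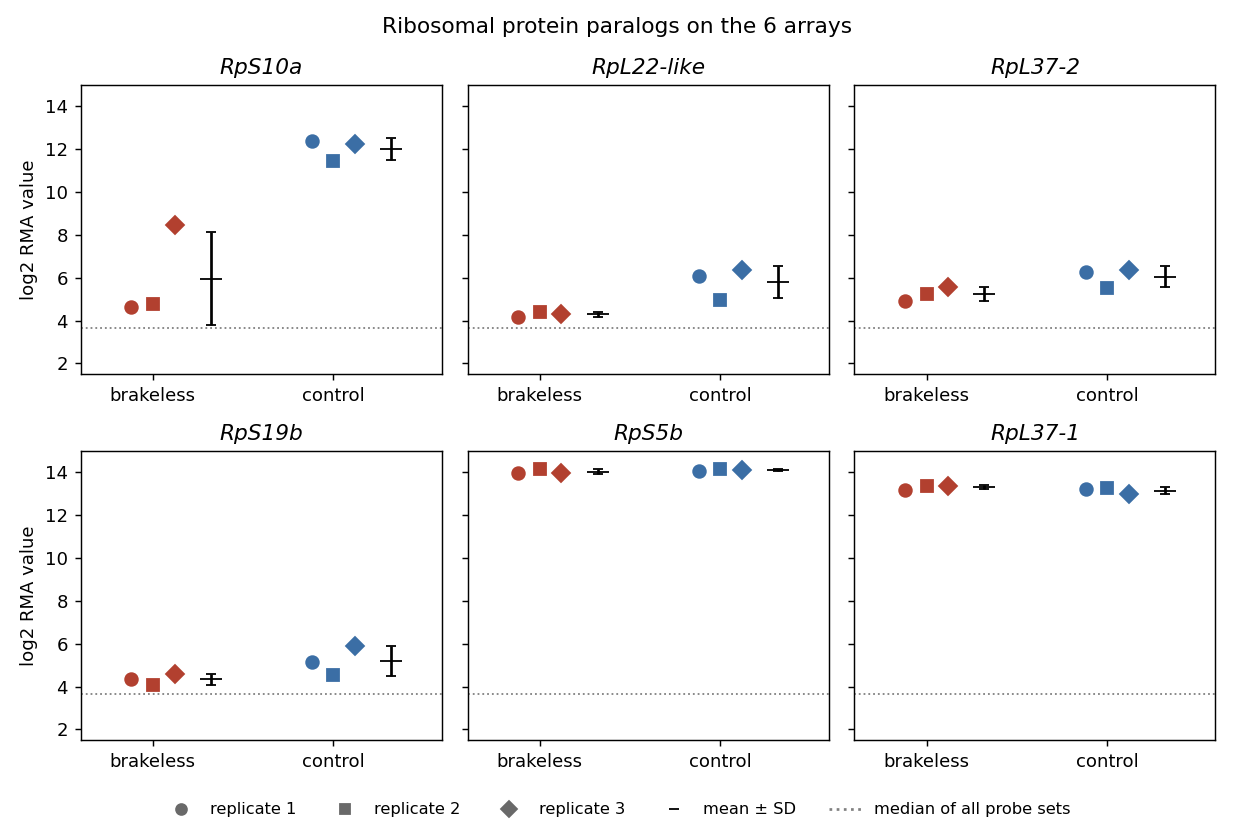
Log2 RMA values of the 6 measured paralogs, brakeless arrays left of control arrays in each panel, with 1 symbol per replicate, the mean ± SD of each group in black and the median of all probe sets (3.67) as a dotted line. RpS10a lies between 4.64 and 8.48 in brakeless embryos and between 11.4 and 12.4 in control embryos, while RpS5b and RpL37-1 stay between 13.0 and 14.2.

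The 4 paralogs with the most negative differences shared their lowest control array. In RpS10a, RpL22-like, RpL37-2 and RpS19b control replicate 2 was the lowest control array, and relative to the mean of the other two it stood at -0.86, -1.24, -0.81 and -0.98 in that order of genes. Among the brakeless arrays the highest was replicate 3 for RpS10a, RpL37-2 and RpS19b, and replicate 2 for RpL22-like. In RpS5b and RpL37-1 control replicate 2 was the highest control array instead. Brakeless replicate 3 highest and control replicate 2 lowest was also seen, over a narrow span, in the other ribosomal protein genes, but not in every list. Means of the 35 other ribosomal protein genes were 12.50, 12.62 and 12.66 in brakeless replicates 1, 2 and 3. In control replicates 1, 2 and 3 they were 12.67, 12.54 and 12.59. Over all 11982 genes the order was reversed, with brakeless replicate 3 the lowest brakeless array at 5.85 and control replicate 2 the highest control array at 5.91. Germ plasm and pole cell genes were reversed as well, with list means of 9.33 in brakeless replicate 3 and 9.88 in control replicate 2. Over all probe sets, deviations from the group mean correlated at 0.55 between brakeless replicate 3 and control replicate 1. For brakeless replicate 2 and control replicate 3 the value was 0.35, and for brakeless replicate 1 and control replicate 2 it was 0.24. The remaining pairs of a brakeless and a control array ran from -0.40 to 0.13. Control replicate 3 was the array least like the others over all probe sets, with a mean correlation of 0.964 against 0.979 to 0.986 for the rest, and without it the RpS10a difference was -5.96.

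Of the 6 member probe sets, 2 had brakeless arrays that all lay below the control arrays and 0 had them above. Over all probe sets the shares were 5.4% below and 4.68% above. Limma called 0 of the 6 at an adjusted p of 0.05, where it called 0.139% of all probe sets, and 3 of the 6 had an unadjusted p under 0.05, against 4.78% of all. The genes were chosen on this contrast, so nothing is read from these counts. The count was 1, RpS10a, when brakeless replicate 3 was left out, and 0 in the other fits that left out an array.

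Of 84 other ribosomal protein symbols listed, 35 were measured, and their differences ran from -0.39 to 0.27. Their median difference was -0.01, against 0.002 over all probe sets. Limma called 0 of the 35, and 0 had an unadjusted p under 0.05. Differences were negative in 21 and positive in 14 of them. The 25 single-copy genes lay between -0.18 for RpS12 and 0.27 for RpL28 and had levels of 13.2 to 14.2. These levels are near the top of the scale at 14.3, which limits the differences they can show, as in RpS5b and RpL37-1. RpS12, a protein of the small subunit known in flies for its role in cell competition, was the 1 gene of the 35 whose groups did not overlap. Of all 11982 genes, 767 were lower and 572 higher in brakeless embryos without overlap. It read 13.42, 13.40 and 13.41 in brakeless replicates 1, 2 and 3, against 13.60, 13.49 and 13.67 in control replicates 1, 2 and 3.

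Other genes with a second copy had differences closer to 0 than the dim paralogs. The 10 measured ones had a median difference of -0.03 and ran from -0.39 for RpL24-like to 0.20 for RpL7-like. RpL24-like, which is known in ribosome assembly rather than in the finished ribosome, read 12.1, 12.4 and 12.6 in brakeless replicates 1, 2 and 3, against 12.9, 12.5 and 12.8 in control replicates 1, 2 and 3, a difference of -0.39 (95% interval -0.83 to 0.05). Among the dim copies, RpS28a at -0.0002 (95% interval -0.30 to 0.30), RpL10Aa at 0.19 (95% interval -0.15 to 0.53) and RpS28-like at -0.05 (95% interval -0.55 to 0.46) had means over the arrays of 4.38, 3.61 and 3.11, near or below the median of all probe sets.

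**Figure D2:**
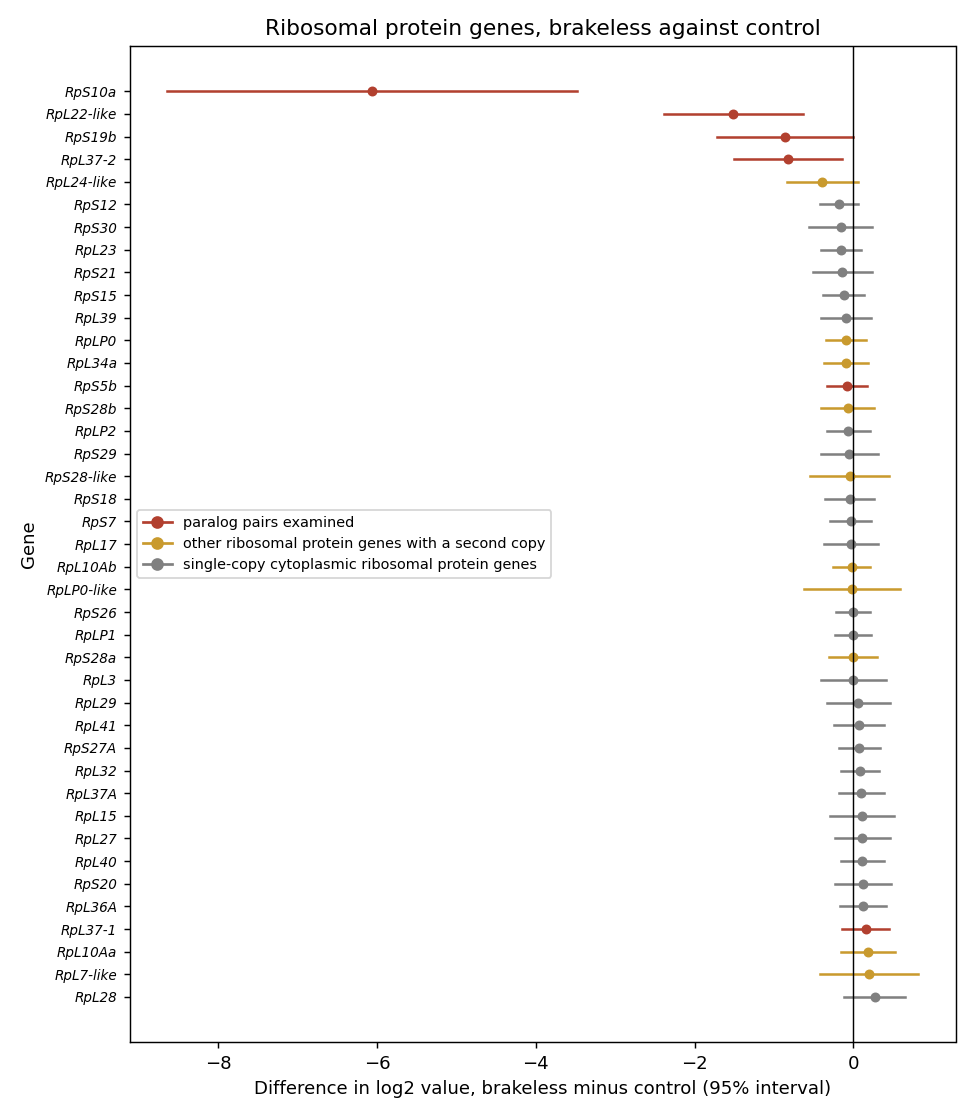
Difference in log2 value, brakeless minus control, with its 95% interval for the 6 measured paralogs (red), the 10 other ribosomal protein genes with a second copy (ochre) and the 25 single-copy cytoplasmic ribosomal protein genes (grey), ordered by the difference. RpS10a at -6.06, RpL22-like at -1.51, RpS19b at -0.86 and RpL37-2 at -0.82 lie below the other genes, which run from -0.39 to 0.27.

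Factors that act on ribosomal protein genes or on ribosome assembly were compared with the same fit. Of 7 regulators measured, among them M1BP and Dref, which bind promoters of ribosomal protein genes, and Irbp18, a partner of Xrp1 in the response to ribosomal protein loss, limma called 0 and 0 had an unadjusted p under 0.05. M1BP differed by -0.34 (95% interval -1.22 to 0.54), Dref by 0.23 (95% interval -0.28 to 0.73) and Irbp18 by -0.47 (95% interval -1.50 to 0.57). The list's median was 0.23, and the differences of Trf2, S6k and Mnt were 1.01, 0.76 and 0.63. Without control replicate 3 they were 0.10, -0.45 and -0.30, and that of M1BP was 0.02. The difference of Irbp18 ran from -0.85 without control replicate 2 to -0.14 without control replicate 1, and that of Dref from 0.01 to 0.36 when 1 array was left out. The 7 assembly factors measured, such as Fib, the methyltransferase of nucleolar RNA particles, had a median difference of -0.02. Limma called 0 of them as well, with 0 at an unadjusted p under 0.05.

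RpL22-like lay at the edge of a group of adjacent genes that were all lower in brakeless embryos. The next 3 measured genes on one side along 2R, CG12782, CG13540 and ord, had groups that did not overlap, while yip3, the nearest on the other side, differed by 0.06 (95% interval -0.26 to 0.37). CG12782 read 3.70, 3.88 and 4.48 in brakeless replicates 1, 2 and 3, against 7.57, 6.73 and 8.19 in control replicates 1, 2 and 3, a difference of -3.47 (95% interval -4.46 to -2.49). CG13540 read 4.41, 3.89 and 6.76 in brakeless replicates 1, 2 and 3, against 10.6, 10.02 and 10.2 in control replicates 1, 2 and 3. Its difference of -5.25 (95% interval -7.05 to -3.46) ranked 2 of all probe sets, next after RpS10a, and in both genes brakeless replicate 3 stood above the other brakeless arrays.

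The gene ord, which holds sister chromatids together in meiosis, closed the group at -2.83 (95% interval -3.50 to -2.17), with 3.76, 4.12 and 4.44 in brakeless replicates 1, 2 and 3, against 6.70, 6.68 and 7.44 in control replicates 1, 2 and 3. Beyond it CG3124 differed by 0.05. Among 11788 measured genes placed in chromosomal order, 755 had groups that did not overlap with brakeless lower, and these 4 genes were the 1 run of 4 or more of them in a row. There were 3 runs of 3. These neighbours were looked at after the values had been seen, so the run is a description. The run and RpL37-2 lie on 2R, the arm that also carries sbb. The brakeless germline clones carried the bks278 chromosome arm, which was not in the control cross. Any other differences of that arm cannot be told apart from bks278 itself, and this was not tested.

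RpL37-2 lies on the same arm, with 14 measured genes between it and RpL22-like, of which 0 were lower and 1, CG3092 at 0.25, was higher in brakeless embryos without overlap, against 5.4% lower and 4.68% higher over all probe sets. Their differences ran from -0.16 to 0.25. The third measured gene on its other side, CG9877, read 4.24, 4.65 and 4.80 in brakeless replicates 1, 2 and 3, against 6.77, 5.65 and 6.79 in control replicates 1, 2 and 3, a difference of -1.83 (95% interval -2.68 to -0.99). The genes between CG9877 and RpL37-2, CG13538 and CG9876, differed by 0.05 and -0.19. On 3R the groups overlapped in the 10 measured neighbours of RpS10a, a count of 0 that is close to those shares over all probe sets. The nearest were tau, the microtubule-binding protein, at -0.10 (95% interval -0.47 to 0.26) and Mlc1, a myosin light chain, at -1.12 (95% interval -4.12 to 1.87). Of 10 neighbours each, RpS19b had 0 with groups apart, RpL37-1 had 1 lower, and RpS5b had 1 lower and 1 higher. The higher one was CG14860 at 0.60 (95% interval 0.30 to 0.90).

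**Figure D3:**
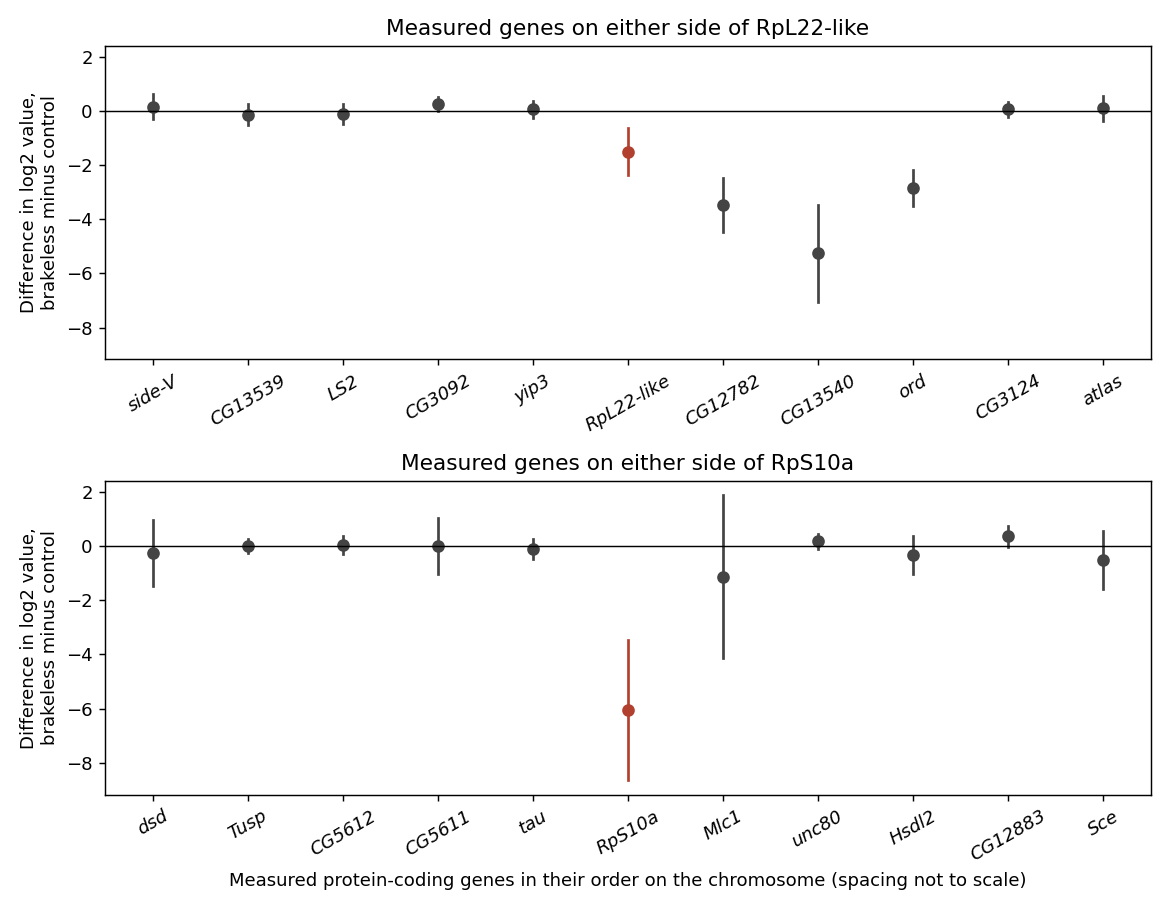
Difference in log2 value, brakeless minus control, with 95% intervals for RpL22-like (top, red) and RpS10a (bottom, red) and the 5 measured protein-coding genes on each side in chromosomal order. Beside RpL22-like, CG12782, CG13540 and ord lie at -3.47, -5.25 and -2.83 and the genes beyond lie near 0, while around RpS10a the nearest gene to stand off is Mlc1 at -1.12 with an interval from -4.12 to 1.87.

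The genes whose values followed RpS10a most closely over the 6 arrays were CG13540 (Pearson's r of 0.994), Elba3 (0.992), ATPsynepsilonL (0.992), vito (0.984) and Idgf3 (0.981). They were the highest of 3676 single-gene probe sets at or above the median level with a range of at least 1. The arrays form 2 groups, so such an r mainly restates the difference between them and is given only to rank the genes. Ranking by r also favours genes with the order of RpS10a within each group, so a shared order is no separate result. ATPsynepsilonL, named as a relative of the epsilon subunit of the mitochondrial ATP synthase, read 4.59, 4.66 and 6.35 in brakeless replicates 1, 2 and 3, against 9.68, 8.72 and 9.39 in control replicates 1, 2 and 3. Like RpS10a and CG13540 it had brakeless replicate 3 above the other brakeless arrays and control replicate 2 lowest among the controls.

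Elba3, vito and Idgf3 also had brakeless replicate 3 as the highest brakeless array and control replicate 2 as the lowest control array, over a smaller span. Their choice by r favours this order. Elba3, a subunit of an early embryonic insulator complex, averaged 8.43 ± 0.31 on the brakeless arrays and 9.37 ± 0.14 on the control arrays (SD, n = 3 each), a difference of -0.94. The gene vito, which encodes a nucleolar protein, differed by -1.16 and Idgf3, a secreted chitinase-like growth factor, by -0.85. These genes lie on 2L (Elba3 and Idgf3), 3L (vito), 3R (ATPsynepsilonL) and 2R (CG13540). Against RpS10a the other members had r of 0.88 for RpL37-2, 0.85 for RpL22-like, 0.77 for RpS19b, 0.27 for RpS5b and -0.48 for RpL37-1.

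**Figure D4:**
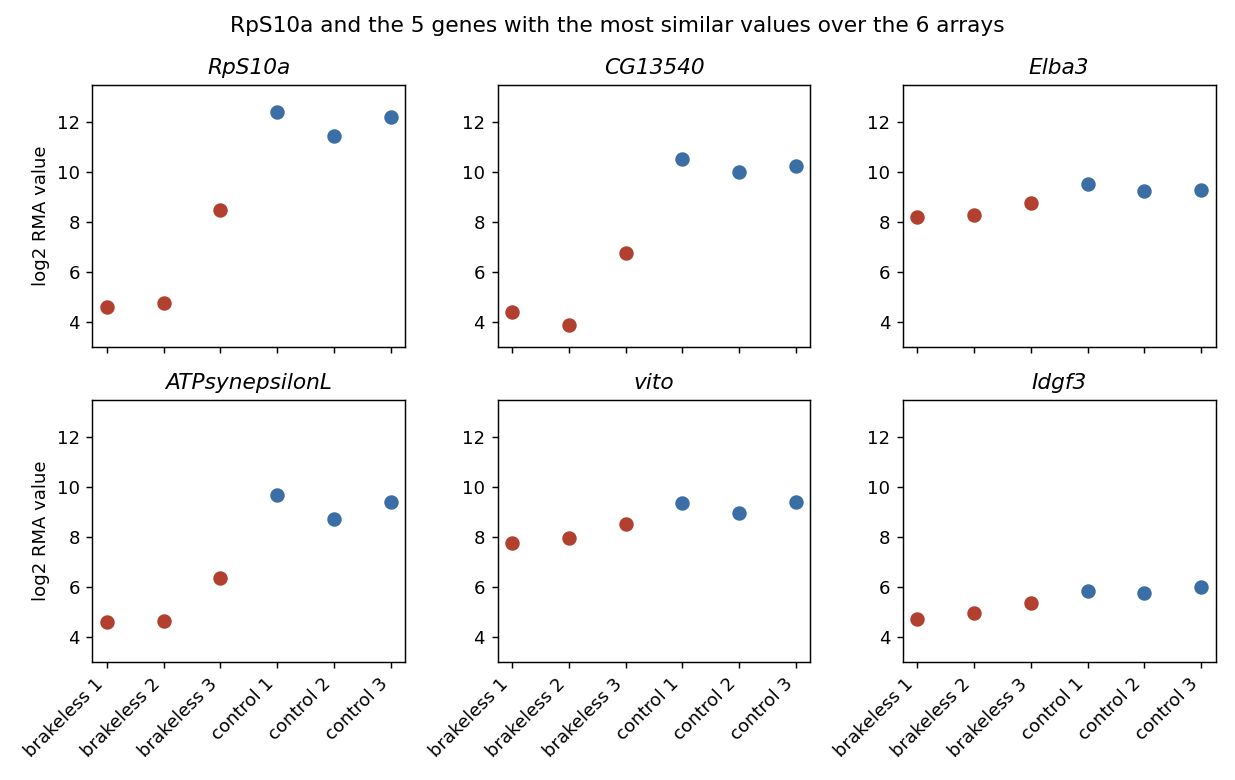
Log2 RMA values on the 3 brakeless arrays (red) and the 3 control arrays (blue) for RpS10a and the 5 genes with the highest correlation to it over the 6 arrays. In each gene brakeless replicate 3 lies between the other brakeless arrays and the control arrays, an order that the choice by correlation favours. It reads 8.48 in RpS10a, 6.76 in CG13540, 8.78 in Elba3, 6.35 in ATPsynepsilonL, 8.51 in vito and 5.38 in Idgf3.

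Markers of the cells and ages that the embryos could hold were read beside these values. The targeted gene sbb read 5.33, 4.45 and 4.61 in brakeless replicates 1, 2 and 3 on its brightest probe set, against 6.01, 6.71 and 6.06 in control replicates 1, 2 and 3, so brakeless replicate 3 was not raised there as it was in RpS10a. Its other 2 probe sets were dim, with overlapping groups and differences of 0.08 (95% interval -0.33 to 0.49) and 0.11 (95% interval -0.39 to 0.60). Blastoderm genes, listed as markers of early embryos, were above the median of their array on all 6 arrays in 8 of 8 measured. The same held for 6741 of all 11982 genes, so nothing is read from this count. In 2 of the 8 the groups did not overlap, with brakeless lower: Sry-alpha, which organizes actin at cellularization, at -1.03 (95% interval -1.39 to -0.67) and nullo, which acts in the same step, at -0.63 (95% interval -1.23 to -0.03). Of all 11982 genes, 767 were lower and 572 higher in brakeless embryos without overlap, the share to set beside this list and those below. The blastoderm list means were 6.95 to 7.64 on the brakeless and 7.23 to 7.74 on the control arrays. Germ plasm and pole cell genes, listed because several paralogs are germ line genes, were higher on average in brakeless embryos in 7 of 7 measured. Of all 11982 genes, 5818 were higher on average, and groups were apart in 0 of the 7. List means were 9.33 to 10.2 in brakeless and 8.89 to 9.88 in control arrays, with vas the dimmest gene at 4.99. The lowest list mean was that of control replicate 3, the array least like the others. There tud read 4.48, against 7.16 and 7.56 in control replicates 1 and 2. Eggshell genes stayed near background, with list means of 3.76 to 3.93 in brakeless and 3.74 to 4.04 in control arrays over 10 genes, of which Vm26Aa and Cp36 had groups apart, both with a difference of -0.20. Muscle genes of older embryos varied widely, with list means of 3.47, 5.32 and 6.27 in brakeless replicates 1, 2 and 3, against 6.05, 6.85 and 5.13 in control replicates 1, 2 and 3 over 5 genes. These were lower on average in brakeless embryos in 5 of 5, as were 6164 of all 11982 genes, and groups were apart in 0 of the 5. The part of age or of pole cells in the differences of the paralogs was not tested.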

How the data were processed

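The authors deposited a log2 value for each probe set, and the submitters' processing notes name RMA as the method. Its settings and version were not given in the sources used here. That the scale is log2 follows from the range of the values, 1.98 to 14.3. Of 18952 probe sets, 183 Affymetrix controls were left out. The platform annotation gave 1 gene symbol to 13647 probe sets, several to 402 and none to 4720; gene numbers of 13544 matched RefSeq (Release 6 plus ISO1 MT), which gave chromosome arms and gene order. Array data have no read depth, and the 3 arrays per group limit the precision. The labels call the arrays biological replicates.

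All probe sets were fitted with limma 3.58.1 in R 4.3.3 (lmFit, eBayes, two-sided, Benjamini-Hochberg over 18769 probe sets, threshold 0.05). On simulated arrays 5.93% of calls were false, and 52% of differences of size 1 and 98% of size 6 were recovered. Their noise was independent between probe sets, without the shared deviations of the real arrays, so these rates need not hold here. The changed probe sets were drawn at random, so the rates are averages and not those of a probe set as variable as RpS10a. Differences are brakeless minus control with moderated 95% intervals. Lists used the brightest of a gene's probe sets, for 11982 genes. The members and lists were chosen with earlier results of these data known. Named were the members, sbb, the 5 genes most like RpS10a, and up to 4 genes per list with groups apart; neighbours and other examples were chosen after their values were seen. Alternatives were trend and robust moderation, array weights, repeated quantile normalization, centring, a filter at the 40th percentile, a replicate block, leaving out each array, and the mean over probe sets. Figures used matplotlib 3.10.9.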

Additional observations from a re-analysis of the deposited data

How the results depend on the processing

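The differences of the 6 paralogs kept their sign under each of 9 alternatives that could change them, from -7.32 to -5.40 for RpS10a, -1.92 to -1.24 for RpL22-like, -1.09 to -0.66 for RpL37-2, -1.18 to -0.50 for RpS19b, -0.14 to -0.02 for RpS5b and 0.07 to 0.21 for RpL37-1. The shift of the RpL37 pair ran from -1.30 to -0.73 when 1 array was left out. The number of member probe sets with brakeless below control and no overlap was 4 after each array was centred on its median, and 2 to 4 when 1 array was left out, with 4 without brakeless replicate 3 and without control replicate 2. The number with brakeless above ran from 0 to 1, the 1 being found without brakeless replicate 1. Limma called 0 to 1 member when 1 array was left out. Over all probe sets it called 26, against 46 with trend and robust moderation, 74 with array weights, 0 with the replicate block and 0 to 33 when 1 array was left out. The replicate numbers of the titles gave no pairing: deviations of same-numbered arrays correlated at -0.40, -0.23 and -0.32, and the replicate block leaves each difference as it is by construction (-6.06 for RpS10a) and called 0 members. The cause of these moves was not tested. Levels near 3.67 or near the top of the scale limit what the brakeless values of RpS10a and the values of RpL22-like, RpL37-2, RpS19b, RpS5b and RpL37-1 can show.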
